A study of Mus musculus with 6 samples.

Results

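The genes described here are 8 transcription factors that set and maintain hepatocyte identity, Hnf4a, Foxa1, Foxa2, Foxa3, Cebpa, Cebpb, Onecut1 and Prox1, out of 18194 genes named on the arrays. Their members on the arrays were all probe sets whose platform annotation gives one of these symbols and no other. These were 15 of 35067 probe sets with 1 gene symbol, 13 on the 430A design and 2, both of Prox1, on the 430B design. No measured value entered this choice of probe sets, but the 8 genes were chosen with earlier results of these data known. The probe sets were read on 6 Affymetrix arrays of mouse liver RNA, 1 array of each design for each of 3 genotypes. LT livers came from mice with the transgenes ApoErtTA and TRE2-TAg, induced to make large T antigen and small t antigen of the polyomavirus SV40. 17kT livers came from mice labelled with ApoErtTA and TRE2-TAg that were induced to make 17kT, a truncated large T, together with small t. WT livers came from non-transgenic mice, which also lacked ApoErtTA, so that the transactivator and the viral proteins cannot be told apart in a comparison with WT. Large T binds both the retinoblastoma family and p53, and 17kT keeps the retinoblastoma family motif without the p53-binding part. All mice, WT included, were males of the B6SJL hybrid background, 32 to 37 days old, and drank 25 µg/ml doxycycline in 2.5% sucrose for 4 days. How many animals gave each RNA was not stated in the labels. With 1 array per genotype and design, values have no replicate error and no test was possible.

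Hepatocyte genes are switched on by a small set of transcription factors that bind one another's genes and share many targets. HNF4A is a nuclear receptor for genes of lipoprotein, bile acid and clotting factor production, the FOXA proteins open closed chromatin at liver enhancers, and the C/EBP proteins are leucine zipper factors of metabolic and acute phase genes. ONECUT1, also called HNF6, and the homeobox protein PROX1 act early in liver development and stay present in adult hepatocytes.

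Among the 8 factors, Cebpa stood apart in 17kT liver, where its transcript was 4.17-fold lower than in WT, and Prox1 in LT liver, where 1 probe set was 2.38-fold higher than in WT. No other member probe set above the floor described below differed by 2-fold from WT in either transgenic liver. Hnf4a and the 3 Foxa genes stayed within 2-fold of WT in the scaling used here, while lists of their textbook target genes held many members that were lower by far more than that.

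The start regions of the members that differed most, Cebpa and Prox1, and of the 3 Foxa genes, whose values are set against each other below, show what lies at the genes behind these probe sets. Each is a RefSeq window of the GRCm38.p6 assembly with 250 bases before and 50 after a transcript start, printed on the gene's strand in lower case. Capitals mark the letters of a searched motif. The windows are Cebpa at chr7:35119043-35119342 on the plus strand, Foxa1 at chr12:57546062-57546361, Foxa2 at chr2:148046920-148047219, Foxa3 at chr7:19023490-19023789 and Prox1 at chr1:190170778-190171077, the last 4 on the minus strand. RefSeq lists further windows for Foxa2 and Prox1.
Cebpa: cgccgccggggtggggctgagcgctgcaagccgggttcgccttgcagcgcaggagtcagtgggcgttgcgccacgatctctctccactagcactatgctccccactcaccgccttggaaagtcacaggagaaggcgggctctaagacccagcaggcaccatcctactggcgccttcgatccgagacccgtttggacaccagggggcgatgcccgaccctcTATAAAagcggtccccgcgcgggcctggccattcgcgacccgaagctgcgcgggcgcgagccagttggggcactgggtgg
Foxa1: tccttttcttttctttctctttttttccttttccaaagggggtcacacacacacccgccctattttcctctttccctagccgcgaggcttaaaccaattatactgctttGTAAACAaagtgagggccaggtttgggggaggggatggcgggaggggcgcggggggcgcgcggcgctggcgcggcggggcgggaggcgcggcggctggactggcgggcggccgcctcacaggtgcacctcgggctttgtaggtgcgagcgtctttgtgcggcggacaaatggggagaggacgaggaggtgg
Foxa2: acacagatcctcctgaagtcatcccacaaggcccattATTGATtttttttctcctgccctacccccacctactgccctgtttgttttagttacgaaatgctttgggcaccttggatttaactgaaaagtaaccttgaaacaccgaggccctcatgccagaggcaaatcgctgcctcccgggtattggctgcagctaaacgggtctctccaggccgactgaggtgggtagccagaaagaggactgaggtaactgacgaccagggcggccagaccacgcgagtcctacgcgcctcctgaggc
Foxa3: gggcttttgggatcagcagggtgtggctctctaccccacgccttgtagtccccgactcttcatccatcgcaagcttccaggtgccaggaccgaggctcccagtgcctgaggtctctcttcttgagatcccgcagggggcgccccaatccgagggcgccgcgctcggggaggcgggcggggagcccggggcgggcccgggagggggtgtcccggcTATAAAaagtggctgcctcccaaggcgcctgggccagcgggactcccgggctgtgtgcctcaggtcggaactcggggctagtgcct
Prox1: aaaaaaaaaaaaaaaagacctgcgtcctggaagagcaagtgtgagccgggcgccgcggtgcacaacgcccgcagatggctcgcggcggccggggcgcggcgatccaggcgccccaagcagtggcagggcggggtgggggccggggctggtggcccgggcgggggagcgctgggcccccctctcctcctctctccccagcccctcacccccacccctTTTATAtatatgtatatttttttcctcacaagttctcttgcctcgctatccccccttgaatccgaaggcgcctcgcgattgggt

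The letters TATAAA, added to the search after the windows were read, began at position -30 from the start in Cebpa and at -36 in Foxa3. In Prox1 they lay on the opposite strand at -34. The Foxa1 window held the FOXA letters TGTTTAC on the opposite strand at -141, and the Foxa2 window the ONECUT letters ATCAAT on the opposite strand at -213. Of 32851 windows of the same length, 13.6% held TATAAA, 6.54% a FOXA motif (TGTTTAC or TATTTAC) and 8.4% an ONECUT motif (ATCGAT or ATCAAT) on either strand. Motifs of HNF4 (CAAAGTCCA or CAAAGTTCA, 0.861% of windows), C/EBP (TTGCGCAA, TTGCACAA or TTGCATCA, 2.07%), HNF1 (GTTAATNAT, 0.801%) and E2F (TTTCGCGC or TTTGGCGC, 0.813%) were not found in any of the 12 windows of the 8 genes. The Cebpa window was 67.3% G and C with 29 CG pairs, against medians of 52.7% and 7 over all windows. A match is a run of letters, not a measured binding site.

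Several facts of the arrays bear on every value. Signals are MAS5 intensities brought to a common trimmed mean, and a signal under the floor (90.4 on 430A and 140.5 on 430B, the median of each design) was not read as a level. Between 47.0% and 52.0% of probe sets lay above the floor on an array. Of the 15 member probe sets, 9 were above the floor on all 3 arrays of their design, 3 on 1 or 2 arrays and 3 on none. The 2 designs share 100 probe sets, and the technical spread of their log2 ratios was 0.23 in LT/WT, 0.28 in 17kT/WT and 0.26 in LT/17kT (SD). Between probe sets of a gene the spread was 0.53, 0.50 and 0.44 (SD) in the same order. The Gapdh 3′ over 5′ ratio, a sign of RNA quality, was 3.08 and 3.16 on the LT arrays and 3.53 and 2.85 on the 17kT arrays, against 5.81 and 6.04 on the WT arrays. The same ratio for Actb did not set WT apart, with 2.52 and 2.50 on LT, 2.13 and 1.72 on 17kT and 2.57 and 2.29 on WT arrays. The part of RNA quality in the log2 ratios was not tested. Fluidics station 2 was used for LT and station 1 for 17kT and WT, and the station cannot be told apart from the LT genotype. The deposited 17kT values have another number format, and any difference in processing behind it cannot be told apart from the 17kT genotype. The arrays do not measure the viral transcripts, so the genotype labels were not checked.

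**Figure D1:**
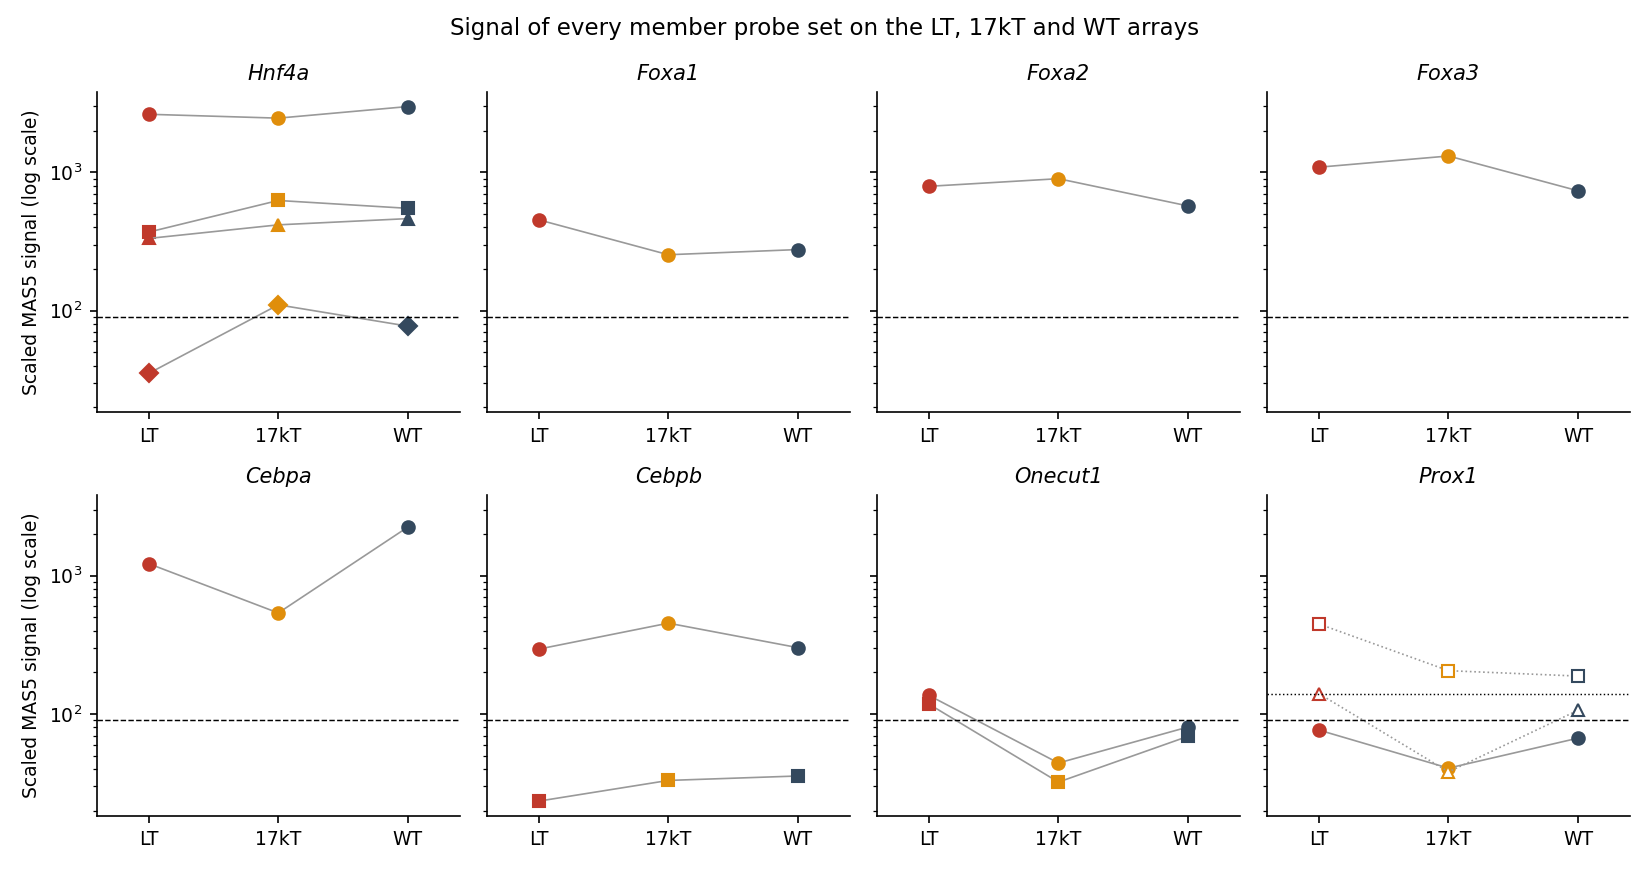
Scaled MAS5 signal (log axis) of each member probe set on the LT, 17kT and WT arrays, 1 panel per gene. Filled symbols are 430A probe sets and open symbols 430B probe sets, a line joins the values of 1 probe set, and the dashed and dotted lines are the floors of 430A (90.4) and 430B (140.5). Cebpa is lowest on the 17kT array, both Foxa2 and Foxa3 lie above WT on the LT and 17kT arrays, and Onecut1 lies near the floor.

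Hnf4a, whose product is the nuclear receptor that many liver-specific genes depend on, was read by 4 probe sets. Probe set 1427001_s_at gave a signal of 2621 in LT and 2458 in 17kT liver, against 2981 in WT liver. Probe set 1427000_at gave 369 in LT and 625 in 17kT, against 548 in WT, and 1421983_s_at gave 332 in LT and 416 in 17kT, against 462 in WT. The log2 ratios of these 3 probe sets ran from -0.57 to -0.19 for LT against WT and from -0.28 to 0.19 for 17kT against WT. None reached 2-fold, and all 3 were lower in LT than in WT, while in 17kT they went both ways. The direction for 1427001_s_at turned under other scalings of the arrays, from -0.44 to 0.18 for LT against WT and from -0.49 to 0.44 for 17kT against WT. The other two probe sets kept the lower value in LT against WT in each of the 6 scalings, with ranges of -0.82 to -0.20 and -0.73 to -0.11. The fourth, 1450447_at, gave 35.2 in LT, 110 in 17kT and 77.2 in WT, so that only the 17kT array was above the floor and no ratio beyond a bound can be read. In LT against 17kT, 1427000_at had a log2 ratio of -0.76, which reached -1.11 when scaled to the hybridisation controls. The labels do not say which transcript forms each probe set reads.

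The FOXA proteins are forkhead factors that bind nucleosomes and prepare liver enhancers. Foxa1 gave a signal of 453 in LT and 253 in 17kT liver, against 276 in WT liver. It was 1.64-fold above WT in LT, and its 17kT and WT values were close, with log2 ratios of 0.71 and -0.12. Foxa2, which is also needed for bile acid handling in hepatocytes, gave 791 in LT and 898 in 17kT, against 571 in WT. Foxa3, which adult hepatocytes make together with Foxa1 and Foxa2, gave 1087 in LT and 1309 in 17kT, against 734 in WT. Foxa2 and Foxa3 thus ran in the same order, 17kT above LT above WT, with log2 ratios to WT of 0.47 and 0.57 in LT and of 0.65 and 0.83 in 17kT. None of the 3 genes passed 2-fold from WT, except that scaling to the hybridisation controls put Foxa1 past it in LT and Foxa2 and Foxa3 past it in 17kT. Foxa2 and Foxa3 stayed above WT in each of the 6 scalings, from 0.22 to 0.94 in LT and from 0.45 to 1.55 in 17kT. Foxa1 stayed above WT in LT (0.46 to 1.08), while its 17kT ratio ran from -0.36 to 0.60.

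A difference between 2 genes on the same arrays does not change when an array is multiplied by a factor, so the Foxa genes were also set against each other. The log2 ratio to WT of Foxa1 exceeded that of Foxa3 by 0.15 in LT and differed from it by -0.96 in 17kT. The log2 ratio of LT to 17kT was 0.84 for Foxa1, which reached 2-fold when scaled to the median of all probe sets, and -0.27 for Foxa3, a difference of 1.11 or 2.15-fold. Foxa2 and Foxa3 differed from each other by -0.10 in LT against WT, -0.18 in 17kT against WT and 0.09 in LT against 17kT. Foxa2 and Foxa3 therefore differed by less than the technical spread between the designs. In 17kT against WT, Foxa1 differed from Foxa2 by -0.78 and from Foxa3 by -0.96. Probe sets of 1 gene had a larger spread of 0.50 per reading there, and each difference holds 2 readings. Whether Foxa1 lay apart from both in 17kT liver is therefore not settled. Each of the 3 genes has 1 probe set, so no second reading of these differences exists.

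Cebpa encodes C/EBPα, a leucine zipper factor that holds hepatocytes out of division and drives genes of glucose, lipid and nitrogen metabolism. Its probe set 1418982_at gave a signal of 1221 in LT and 538 in 17kT liver, against 2244 in WT liver. All 3 values lay far above the floor, and 17kT was the lowest. The signal was 4.17-fold lower in 17kT than in WT (log2 ratio -2.06), and 2.47% of the measured 430A probe sets had a ratio as low or lower. In LT it was 1.84-fold lower than in WT (log2 ratio -0.88), which did not pass the 2-fold rule and with 9.85% of probe sets as low or lower. LT was 2.27-fold higher than 17kT (log2 ratio 1.18), with 1.6% of probe sets as high. The 17kT value stayed past 2-fold below WT in each of the 6 scalings (-2.27 to -1.34). The LT value ran from -1.13 to -0.51 and passed in 1 of 6, and the ratio of LT to 17kT ran from 0.83 to 1.35 and passed in 5 of 6. The 9 hepatocyte markers described below had median log2 ratios to WT of -0.54 in LT and -0.71 in 17kT. The part of hepatocyte number in the Cebpa values of whole liver was not tested.

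Cebpb encodes C/EBPβ, a relative of C/EBPα that rises in liver regeneration and in the acute phase response. Its probe set 1418901_at gave 295 in LT and 454 in 17kT, against 302 in WT, log2 ratios of -0.03 and 0.59. LT and WT lay close together and 17kT above both, short of the rule except when scaled to the hybridisation controls (1.31). The other probe set, 1427844_a_at, gave 23.5 in LT, 33.2 in 17kT and 35.7 in WT, all under the floor. On the same arrays Cebpa and Cebpb therefore parted in 17kT liver. The ratio of Cebpa to Cebpb signal was 6.27-fold lower in 17kT than in WT and 1.79-fold lower in LT than in WT, and it was 3.49-fold higher in LT than in 17kT. Against Hnf4a 1427001_s_at, Cebpa was 3.44-fold lower in 17kT relative to WT, and against Foxa3 7.44-fold lower.

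Onecut1 encodes a cut-homeodomain factor that works with HNF4A and FOXA2 in the liver network. Its probe set 1421447_at gave 136 in LT and 44.3 in 17kT, against 80.6 in WT, and 1450252_at gave 118 in LT and 32.2 in 17kT, against 69.0 in WT. Only the LT array was above the floor for either probe set, so the log2 ratio of LT to WT was at least 0.59 and 0.38, and likewise that of LT to 17kT. The 17kT and WT values of both probe sets were under the floor and were not ordered.

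Prox1 encodes a homeobox factor that is needed for hepatocyte migration in the embryo and that can repress HNF4A-driven genes. Probe set 1437894_at on 430B gave 448 in LT and 206 in 17kT liver, against 188 in WT liver. LT alone was high: the signal was 2.38-fold higher than in WT (log2 ratio 1.25) and 2.17-fold higher than in 17kT (1.12), and 6.25% of measured 430B probe sets were as high in LT against WT. The log2 ratio of 17kT to WT was 0.13. The LT ratio to WT passed 2-fold in 5 of 6 scalings and was 0.78 under scaling to the probe sets that both designs carry. Those shared probe sets had log2 ratios of LT to WT that were lower on 430A than on 430B by a median of 0.25 (offset -0.25). The other probe sets did not exceed the floor: 1457432_at on 430B gave 140.5, equal to the floor, in LT and 38.2 in 17kT, against 106.5 in WT, and 1421336_at on 430A gave 76.6 in LT and 40.7 in 17kT, against 67.0 in WT. The 2-fold value for Prox1 is thus from 1 of 3 probe sets. Prox1 is also a marker of lymphatic endothelium. Of its other markers, Lyve1, also found on liver sinusoids, gave 234 in LT and 326 in 17kT, against 162 in WT, log2 ratios of 0.53 and 1.01. Flt4 had log2 ratios to WT of -0.19 in LT and 0.05 in 17kT, and Pdpn was at the floor on all arrays. The part of such cells in the Prox1 signal was not tested.

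Counted over probe sets, 11 of 15 were measured in LT against WT, of which 1 was higher (Prox1), 0 were lower and 10 did not pass, while 18.8% of all 20674 measured probe sets passed 2-fold in either direction. In 17kT against WT, 10 were measured, 0 were higher, 1 was lower (Cebpa) and 9 did not pass, while 17.2% of 21203 passed. In LT against 17kT, 12 were measured, 2 were higher (Cebpa and Prox1), 0 were lower and 10 did not pass, while 8.24% of 20451 passed. Nothing about the members as a group was read from so few calls. The counts of measured probe sets include some that were above the floor on the brighter array only, such as those of Onecut1. The 9 member probe sets above the floor on all 3 arrays had median log2 ratios of -0.03 in LT against WT, 0.13 in 17kT against WT and -0.18 in LT against 17kT, beside 0.07, 0.10 and -0.01 over the 14666 probe sets that met the same condition. Both comparisons with WT use the same WT arrays.

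**Figure D2:**
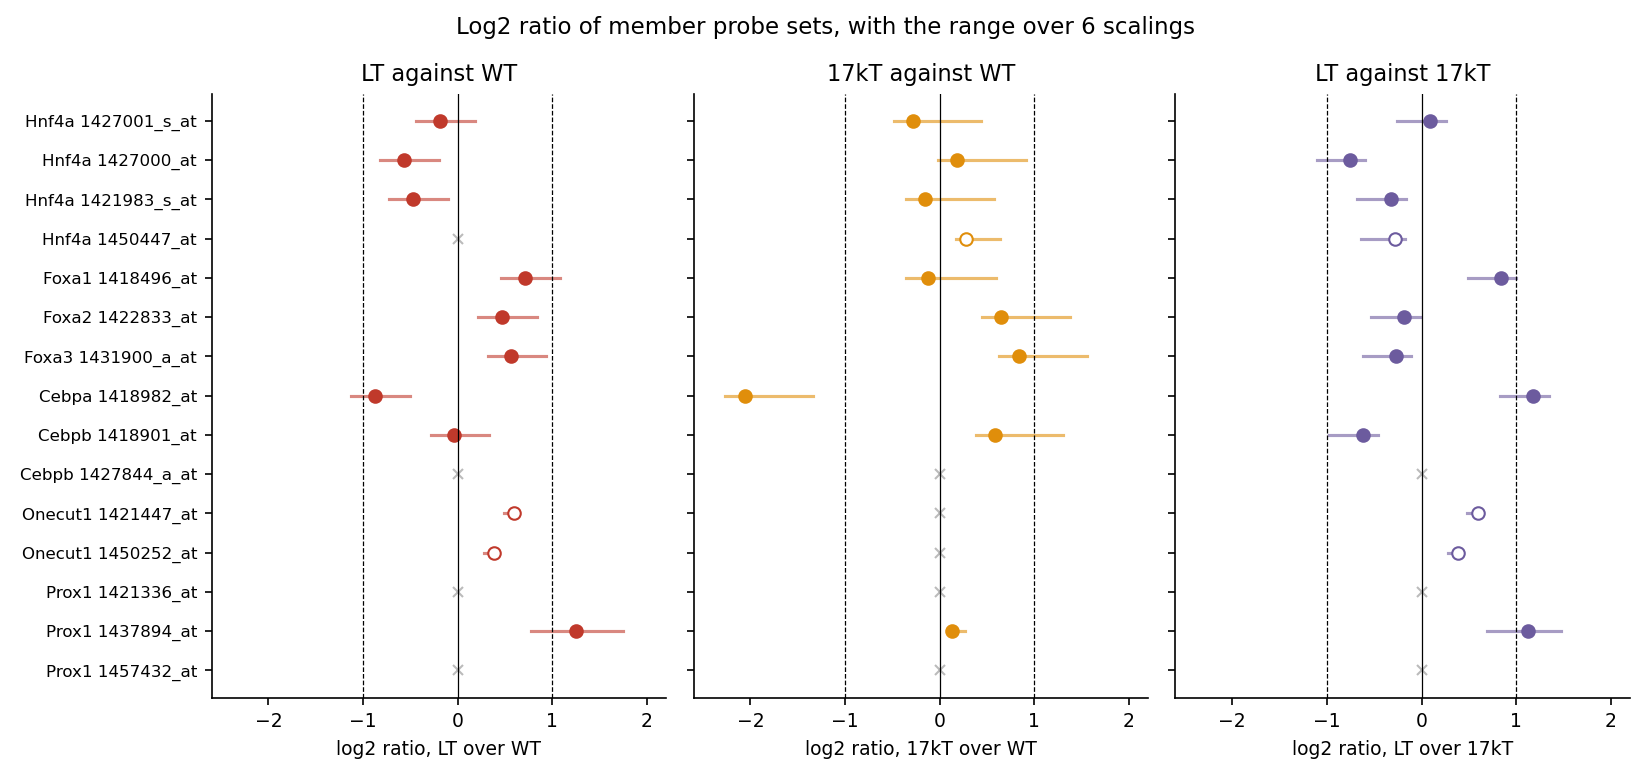
Log2 ratio of each member probe set for LT against WT, 17kT against WT and LT against 17kT (x axis, dashed lines at 2-fold), with the probe sets down the y axis. Filled points are ratios above the floor on both arrays, open points are bounds with 1 array at the floor, crosses have no ratio, and bars span the 6 scalings. Cebpa in 17kT against WT (-2.06) is the one value whose bar lies wholly beyond 2-fold.

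The nearest patterns to Cebpa and Prox1, measured as the distance in the plane of the log2 ratios LT to WT and 17kT to WT over the 3 arrays of a design, were found among genes above the floor on all 3 arrays. Of 5673 genes on 430A, the 3 nearest to Cebpa were the carbonic anhydrase gene Car14 at a distance of 0.04, the fatty acid binding protein gene Fabp5 at 0.12 and the pyridoxal kinase gene Pdxk at 0.13. Car14 had log2 ratios of -0.84 in LT and -2.05 in 17kT. Of 4109 genes on 430B, the 3 nearest to Prox1 were the nuclear receptor corepressor gene Lcor at 0.02, Cpne3 at 0.05 and Cyhr1 at 0.07. With 3 arrays such closeness is a description of 2 ratios.

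Among other factors of the liver network, Gata6 was higher and Nr0b2 and Ppara were lower than WT in both transgenic livers. Of 33 listed network factors beside the members, 29 were on the arrays and 27 were measured. In LT against WT, 2 were higher, 3 lower and 22 did not pass (median 0.02), in a comparison where 11.1% of 12776 measured genes were higher and 9.01% lower, so that the share of factors called is near that of all genes and is no result about the list. Gata6, a zinc finger factor of endoderm, gave a signal of 293 in LT and 268 in 17kT, against 104 in WT, 2.81-fold and 2.56-fold higher. Another Gata6 probe set had a log2 ratio of 0.07 in 17kT against WT. Nfib, a nuclear factor I gene, gave 3564 in LT and 1473 in 17kT, against 1259 in WT, 2.83-fold higher in LT alone, though another of its probe sets had a log2 ratio of 0.16. Nr0b2, the repressor SHP that bile acid signalling induces, gave 235 in LT and 153 in 17kT, against 579 in WT, 2.47-fold and 3.79-fold lower, the first in 5 of 6 scalings. Ppara, the fatty acid sensing receptor, was 2.28-fold lower in LT and 2.21-fold lower in 17kT, past the rule in 4 and 5 of 6 scalings, and Atf5 was 2.39-fold lower in LT, in 5 of 6. Another Ppara probe set had a log2 ratio of -0.80 in LT against WT.

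In 17kT against WT, 2 network factors were again higher, 3 lower and 22 did not pass (median -0.07), beside 9.97% of 12993 genes higher and 8.64% lower. Cux2 was 2.63-fold higher, while another probe set, at the floor in 17kT, had a log2 ratio of at most -0.90. Nr1h4, the bile acid receptor FXR, was 2.13-fold lower, in 5 of 6 scalings. For LT against 17kT, 1 of 27 factors was higher (Nfib, 2.42-fold, in 5 of 6 scalings), 0 were lower and 26 did not pass (median 0.01), beside 4.47% of 12542 genes higher and 4.23% lower. Signs of these 3 medians turned with the scaling. Nr5a2, a receptor that partners HNF4A on bile acid genes, had log2 ratios of 0.49 in LT and 0.49 in 17kT, and Hhex, a homeobox factor of the liver bud, 0.31 and -0.28.

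Relatives of the C/EBP genes showed single changes without a common direction. Of 13 listed, 12 were on the arrays and 7 were measured. In LT against WT, Atf3, a stress-induced factor, was at least 2.60-fold higher and Nfil3, a repressor of clock output, 2.44-fold lower (past the rule in 5 of 6 scalings), and 5 did not pass. In 17kT against WT, Tef, a factor of the same clock-output family as Dbp, was 2.10-fold higher (in 4 of 6 scalings), 0 were lower and 6 did not pass. Tef was also 2.90-fold lower in LT than in 17kT, a comparison in which 0 were higher and 6 did not pass. Over all measured genes, 11.1% were higher and 9.01% lower in LT against WT, 9.97% and 8.64% in 17kT against WT, and 4.47% and 4.23% in LT against 17kT. So few calls are no result about the C/EBP relatives. Cebpg, which forms dimers with other C/EBP proteins, had log2 ratios of 0.58 in LT and 0.53 in 17kT. Cebpd, the acute phase relative, was under the floor on all arrays.

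**Figure D3:**
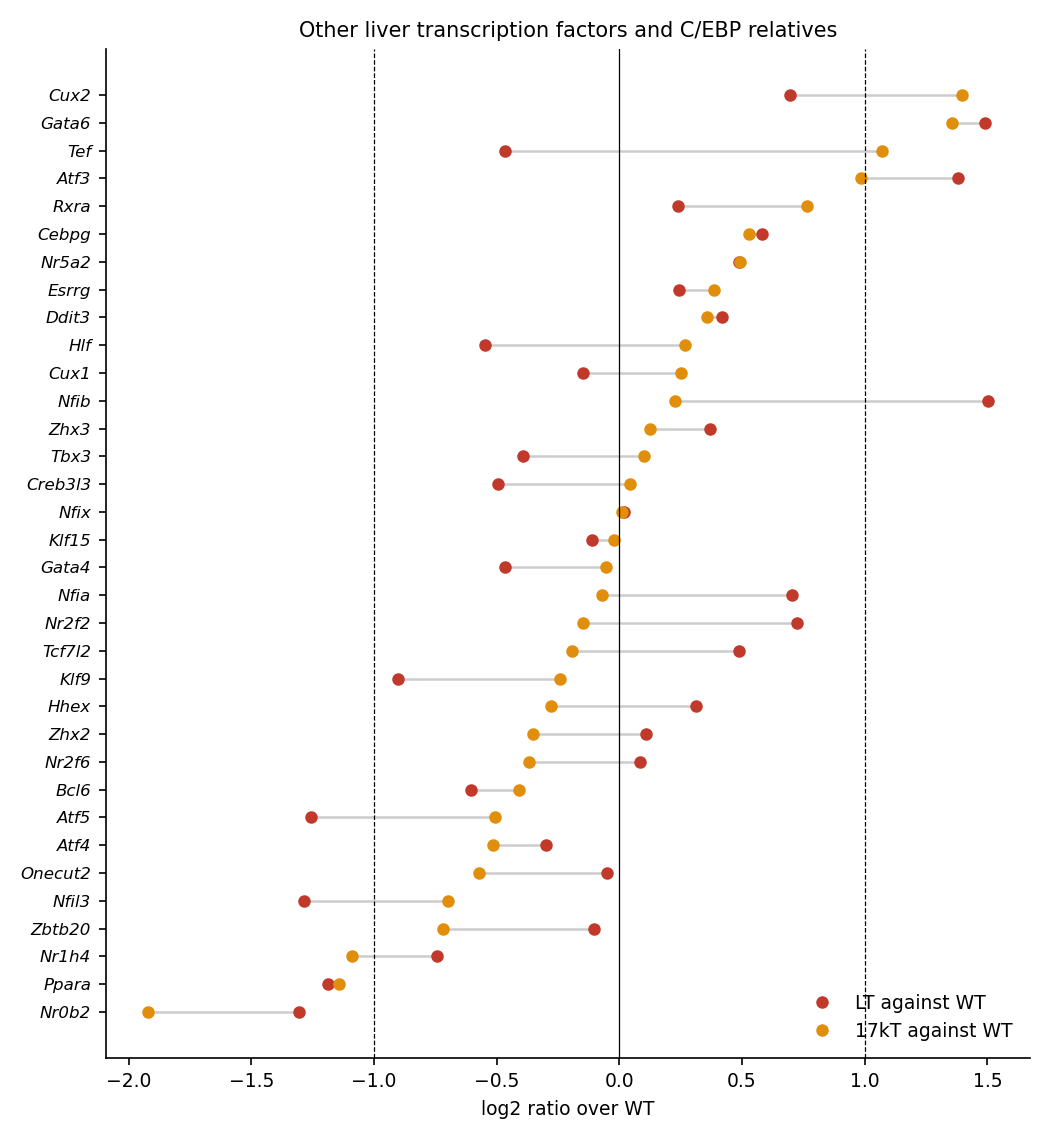
Log2 ratio to WT (x axis, dashed lines at 2-fold) of the measured liver network factors and C/EBP relatives other than the members, sorted by the 17kT value. Red points are LT and orange points 17kT, a grey line joins the values of 1 gene, and both Atf3 points are lower bounds. Nr0b2 and Ppara lie beyond 2-fold below WT in both, and Gata6 beyond 2-fold above WT in both. Each gene is shown by 1 probe set, and another Gata6 probe set had a log2 ratio of at least 0.07 in 17kT against WT.

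Textbook targets of HNF4A included many that were lower in both transgenic livers. Of 40 listed, 36 were on the arrays and 35 were measured. In LT against WT, 0 were higher, 24 were lower and 11 did not pass, with a median log2 ratio of -1.44, while the median of all genes was 0.02. In 17kT against WT, 0 were higher, 28 were lower and 7 did not pass, with a median of -1.63 beside 0.08 for all genes. Over all measured genes, 11.1% were higher and 9.01% lower in LT against WT, and 9.97% and 8.64% in 17kT against WT. The medians stayed below 0 under every setting run, from -1.69 to -0.51 in LT and from -1.84 to -0.75 in 17kT, and the values nearest 0 come from 3 genes on the 430B design alone. Hnf4a itself, by its probe sets above the floor on all arrays, had log2 ratios of -0.57 to 0.19 in the same comparisons.

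Slco1b2, a sinusoidal uptake transporter, gave a signal of 195 in LT and 135 in 17kT, against 4376 in WT, 22.5-fold and 32.4-fold lower. Gulo, which completes vitamin C synthesis in mice, gave 126 in LT and 290 in 17kT, against 3862 in WT, 30.6-fold lower in LT. Slc10a1, the bile acid importer, gave 1392 in LT and 324 in 17kT, against 6549 in WT, 4.70-fold and 20.2-fold lower. The bile acid ligase gene Slc27a5 was 13.9-fold lower in LT, and the apolipoprotein gene Apoa4 11.7-fold. Apom, an apolipoprotein of HDL, was 20.8-fold lower in 17kT, and Ugt2b1, whose family has close paralogs and is uncertain, 33.5-fold. Between the transgenic livers 4 targets were higher in LT, 2 were lower and 29 did not pass (median 0.22): Apom was 5.79-fold, Slc10a1 4.30-fold, Ugt2b1 3.96-fold and Apoa2 3.80-fold higher in LT, and Gulo 2.30-fold and the lectin gene Mbl2 2.27-fold lower. The median of this comparison was -0.13 when arrays were scaled to the hybridisation controls. Over all measured genes, 4.47% were higher and 4.23% lower in LT than in 17kT.

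More targets of the FOXA factors were lower than higher in each transgenic liver compared with WT. The few higher calls are no result about the list. The list of 27 holds Foxa3 itself, and 23 were on the arrays, of which 22 were measured. In LT against WT, 1 was higher, 10 were lower and 11 did not pass (median -0.53), and in 17kT against WT, 3 were higher, 11 were lower and 8 did not pass (median -0.96). These medians ran from -0.89 to -0.12 and from -1.17 to -0.24 under the settings run. Over all measured genes, 11.1% were higher and 9.01% lower in LT against WT, 9.97% and 8.64% in 17kT against WT, and 4.47% and 4.23% in LT against 17kT. Afp, the fetal counterpart of albumin, gave 7712 in LT and 223 in 17kT, against 65.7 in WT, so that it was at least 85.3-fold and at least 2.47-fold higher. The lowest log2 ratio among other Afp probe sets was 0.76 in 17kT against WT. In LT against WT and LT against 17kT it was a lower bound of 0.56, with WT and 17kT at the floor. Cpt1a, the gate of mitochondrial fatty acid oxidation, gave 1527 in LT and 3881 in 17kT, against 1247 in WT, 3.11-fold higher in 17kT. Abcc2, the canalicular conjugate exporter, gave 118 in LT and 538 in 17kT, against 242 in WT, 2.05-fold lower in LT and 2.22-fold higher in 17kT, past the rule in 5 and 3 of 6 scalings. Hpd, of tyrosine breakdown, was 7.69-fold lower in LT and 6.21-fold lower in 17kT, and Igfbp1 was 6.46-fold lower in LT. Cyp2c50, of a paralogous family and uncertain, was 54.0-fold lower in LT and at least 75.03-fold lower in 17kT. LT exceeded 17kT for 2 of them (Afp by 34.6-fold and Slc10a1), was lower for 3 (Abcc2 by 4.56-fold, Cpt1a by 2.54-fold and Igfbp1 by 2.39-fold) and was not past the rule for 17, with a median of 0.31.

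Targets of the C/EBP factors were lower or not past the rule in both livers, apart from Hamp and Lcn2. Of 36 listed, 31 were on the arrays and 30 were measured in each comparison with WT. In LT against WT, 2 were higher, 16 were lower and 12 did not pass (median -1.16), and in 17kT against WT, 2 were higher, 16 were lower and 12 did not pass (median -1.20), with ranges of -1.41 to -0.51 and -1.40 to -0.49 over the settings run. Over all measured genes, 11.1% were higher and 9.01% lower in LT against WT, 9.97% and 8.64% in 17kT against WT, and 4.47% and 4.23% in LT against 17kT. Orm1, an acute phase gene, gave 154 in LT and 170 in 17kT, against 4103 in WT, 26.6-fold and 24.2-fold lower. Saa1 gave 194 in LT and 165 in 17kT, against 11240 in WT, 57.8-fold and 68.3-fold lower, and is uncertain because of its close paralogs. Hamp, the iron hormone gene, went the other way, with 5938 in LT and 7184 in 17kT, against 867 in WT, 6.85-fold and 8.29-fold higher, and Lcn2, also a neutrophil gene, was 2.48-fold and 2.06-fold higher, the second in 4 of 6 scalings. Other acute phase genes differed, since Hp had a log2 ratio of -0.69 in LT and Hpx had -0.38 in LT and -0.64 in 17kT, not past the rule. Between LT and 17kT, where Cebpa was 2.27-fold higher in LT, 2 of 29 targets were higher (Hp by 2.95-fold and Crp by 2.23-fold, in 5 of 6 scalings), 0 were lower and 27 did not pass (median 0.24, and -0.11 when scaled to the hybridisation controls). Hp gave 12510 in LT and 4235 in 17kT, and Crp gave 1611 in LT and 723 in 17kT.

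The classic targets Alb and Cps1, named after their values were seen, did not pass 2-fold in either comparison with WT. Alb, on both the FOXA and the C/EBP lists, gave 23851 in LT and 18262 in 17kT, against 28283 in WT, log2 ratios of -0.25 and -0.63. Cps1, the first enzyme of the urea cycle, gave 15579 in LT and 12961 in 17kT, against 16140 in WT. The 3 target lists share genes, among them Apob, G6pc, Pck1 and Tat, so their counts are not separate readings.

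**Figure D4:**
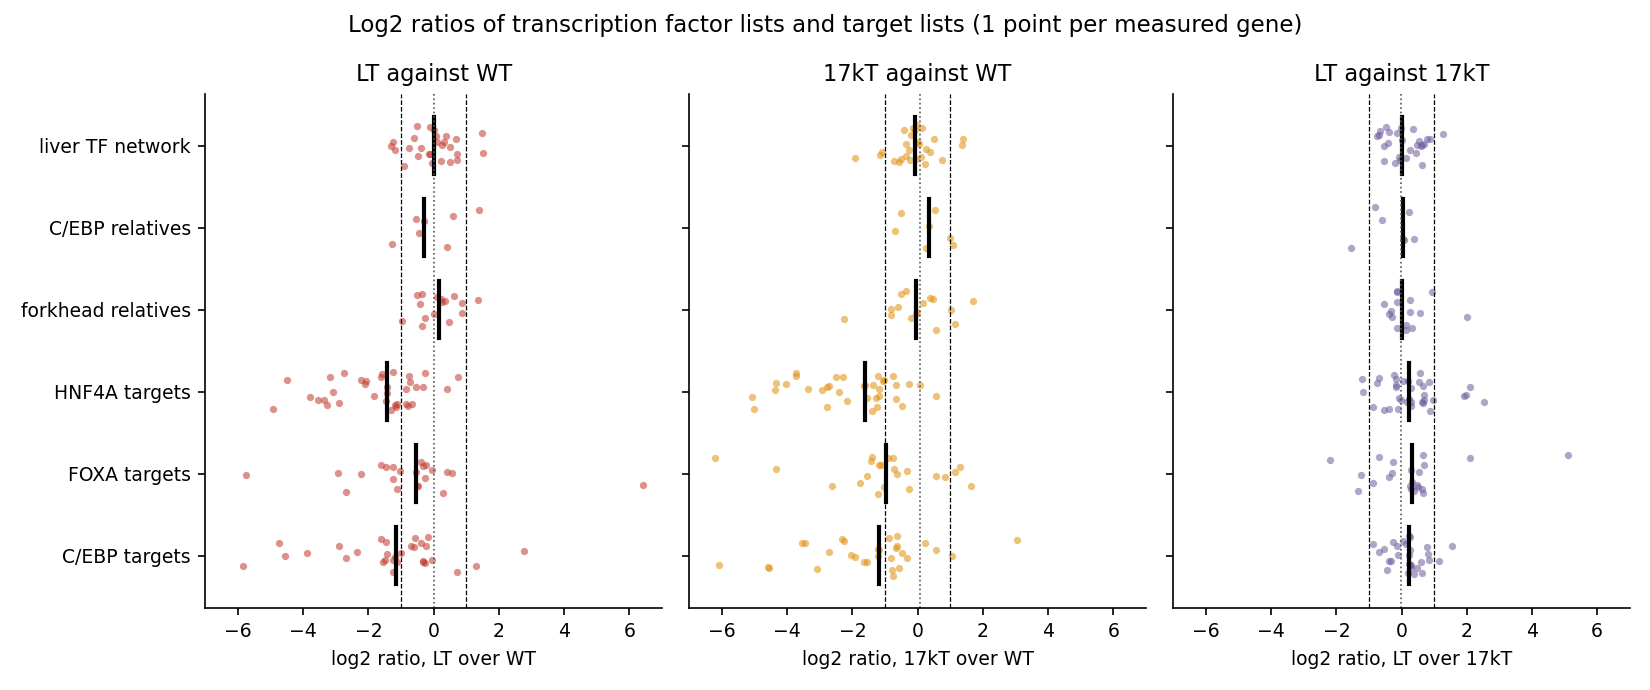
Log2 ratios (x axis, dashed lines at 2-fold, dotted line at the median of all genes) of the measured genes in 6 lists, 1 point per gene, for LT against WT, 17kT against WT and LT against 17kT. Black bars are medians. The 3 lists of network factors and relatives have medians between -0.30 and 0.36, and the HNF4A targets are centred at -1.44 and -1.63 in the comparisons with WT.

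Markers of cell types were read on the same arrays. All 9 hepatocyte markers on the arrays were above the floor, with a summed signal of 172931 in LT and 138186 in 17kT, against 247172 in WT. In LT against WT, 0 were higher, 1 was lower (Apob, 2.74-fold, with another probe set at a log2 ratio of -0.51) and 8 did not pass. For 17kT against WT, 0 were higher, 2 were lower and 7 did not pass. Those 2 were Ttr by 2.28-fold, in 5 of 6 scalings, and Apoa1 by 2.10-fold, in 4 of 6. The 10 bile duct and progenitor markers on the arrays summed to 1396 in LT and 484 in 17kT, against 405 in WT, and 3 were above the floor on any array. Cd24a was at least 6.03-fold and Prom1 at least 6.09-fold higher in LT than in WT. Another Cd24a probe set, at the floor in WT, gave only a lower bound of 0.29 for the log2 ratio. Krt19, Krt7, Sox9, Epcam, Cldn4, Cftr and Muc1 were at the floor on all arrays. Each sum counts every marker of its list on the arrays, with signals under the floor included. The 12 endothelial and lymphatic markers, 9 of them above the floor on at least 1 array, summed to 3153 in LT and 3957 in 17kT, against 4728 in WT. Pdpn, Emcn and Vwf were at the floor on all arrays. Cdh5 was 2.27-fold and Eng 2.03-fold lower in LT, and 2.36-fold and 2.05-fold lower in 17kT, Tek was 2.31-fold lower in LT, each in 5 of 6 scalings, and Lyve1 was 2.01-fold higher in 17kT, in 3 of 6. Another Eng probe set had log2 ratios to WT of -0.61 in LT and -0.01 in 17kT, and another Lyve1 probe set 0.74 in 17kT. All 12 Kupffer cell markers were counted, with sums of 13417 in LT and 16055 in 17kT, against 15552 in WT. Cd163, at the floor in LT, was at least 2.33-fold lower there than in 17kT, and Timd4 was 2.15-fold lower in 17kT than in WT, in 5 of 6 scalings. The 9 neutrophil markers, 7 of them above the floor on at least 1 array, summed to 2824 in LT and 2212 in 17kT, against 1383 in WT. S100a8 was at least 2.53-fold higher in LT than in 17kT or WT, and Camp and Cxcr2 were at the floor. The 6 adipocyte markers, 3 of them above the floor on at least 1 array, summed to 10552 in LT and 932.5 in 17kT, against 16850 in WT. Most of each sum came from Car3, which hepatocytes also express, and Adipoq, Lep and Cidec were at the floor. Fabp4 was 2.04-fold lower in LT and 2.33-fold lower in 17kT, in 5 of 6 scalings, while another of its probe sets had log2 ratios of -0.46 and -0.495. The 10 pancreas markers, 3 of them above the floor on at least 1 array, summed to 468 in LT and 736 in 17kT, against 1721 in WT. Most of the WT sum came from Cela1, and Pdx1, Ins2, Gcg, Ptf1a, Cela2a, Cpa1 and Cpb1 were at the floor. The part of these shifts in the values of the 8 factors and their targets was not tested.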

How the data were processed

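Liver RNA was hybridised to Affymetrix 430A and 430B arrays, 1 array per genotype and design. The deposited values are linear intensities of probe sets, which the authors made in MAS5 (per the submitters' processing notes), and no version of it is given in the sources used here. The authors had scaled the deposited intensities, with 2% trimmed means of 250.03 to 250.12. Settings files were deposited for each array, and the other entry used from them is the fluidics station, per the file headers. The 17kT intensities were deposited with more decimals than the others. Any difference in processing that goes with this cannot be told apart from the 17kT genotype.

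Here each design was scaled to 1 trimmed mean and floored at its median signal, and log2 ratios were taken within a design (python 3.11.15, numpy 2.4.6, pandas 2.3.3). A ratio past 2-fold was called. Where 1 of the arrays compared was at the floor the ratio is a bound, and where both were there is none. The platform annotation gave 1 symbol for 20393 of 22690 probe sets on 430A (691 several, 1606 none) and for 14674 of 22575 on 430B (245 several, 7656 none), and symbols were updated through the RefSeq table of GRCm38.p6. For lists, a gene was read by its probe set that is brightest relative to the floor, with the _x_at kind used only where a gene had no other. Technical spread is the SD of the difference between 2 readings of a log2 ratio, divided by the square root of 2.

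The 8 members and the 6 pathway and 7 marker lists were chosen with earlier results of these data known. Of 173 pathway and 78 marker entries, 154 and 68 matched a gene, and the rest were not analysed here. Named were all members, up to 4 genes past 2-fold each way per pathway list, every network factor and C/EBP relative past 2-fold, marker genes past 2-fold or at the floor, and the 3 nearest patterns. Alb, Cps1, Hhex, Hpx, Nr5a2, Cebpg and Cebpd were named outside this rule, after their values were seen. The steps were tested on simulated arrays. Alternatives were 5 other scalings, other floors, a 3-fold rule, other choices of probe sets and each design alone. Precision is limited by the number of arrays, and no p-value was computed.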

Additional observations from a re-analysis of the deposited data

How the results depend on the processing

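No member ratio or list median past 2-fold changed sign under the alternatives run. Values short of 2-fold did. The ratio of Hnf4a 1427001_s_at ran from -0.44 to 0.18 in LT against WT, that of Foxa1 from -0.36 to 0.60 in 17kT against WT and that of Cebpb from -0.29 to 0.33 in LT against WT over the scalings, and scaling to the hybridisation controls turned the LT against 17kT medians of the HNF4A (-0.13), FOXA (-0.04) and C/EBP (-0.11) targets. The medians of the network factors turned as well. No paired analysis was possible because each genotype has 1 array per design and no result comes from a test. Of the member probe sets, 1 passed 2-fold in LT against WT. That number was 2 when scaled to the hybridisation controls (Foxa1 added), 2 with a floor at the 25th percentile or with no floor (Hnf4a 1450447_at added), and 0 if the floor was the 75th percentile or a pseudocount or if the rule was 3-fold. Scaling to the probe sets present on both designs also gave 1, but it was Cebpa in place of Prox1. In 17kT against WT, 1 passed, and Cebpa passed under every setting run. The number was 4 when scaled to the hybridisation controls (Cebpb, Foxa2 and Foxa3 added) and 3 with the floor lowered to the 25th percentile or left out (Onecut1 1450252_at and Prox1 1457432_at added). In LT against 17kT, 2 passed, against 1 when scaled to the probe sets present on both designs or with the floor as the 75th percentile or a pseudocount (Cebpa alone), 3 when scaled to the median of all probe sets (Foxa1 added), 6 with a floor at the 25th percentile or no floor, and 0 under the 3-fold rule. Scaling to the hybridisation controls also gave 2, but with Hnf4a 1427000_at in place of Cebpa. Among pathway list genes, 51 of 121 passed in LT against WT, 27 under the 3-fold rule and 3 on 430B alone. In 17kT against WT, 62 of 121 passed, 37 under the 3-fold rule and 8 on 430B alone. For LT against 17kT, 15 of 120 passed, 25 when scaled to the hybridisation controls, 7 under the 3-fold rule and 3 on 430B alone. The smaller numbers on 430B come from fewer genes measured there, and those of the 3-fold rule from its construction. The cause of the other shifts was not tested. Over the scalings the median of all genes ran from -0.27 to 0.41 in LT against WT, from -0.05 to 0.47 in 17kT against WT and from -0.18 to 0.14 in LT against 17kT. Of the member probe set ratios under an alternative, 237 stayed past 2-fold or moved by less than the technical spread, 32 moved by more, 13 came to pass 2-fold and 7 no longer did. With the list medians added, the first 2 numbers were 431 and 69. List medians were sorted only by whether they moved by more than the technical spread, so those that fell short of 2-fold were not counted apart. Signals near the floor limit what can be read of Onecut1, Cebpb 1427844_a_at and 2 of 3 Prox1 probe sets.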

Other observations

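Forkhead genes other than the Foxa members were read from a list of 24, of which 23 were on the arrays and 16 were measured. In LT against WT, 1 was higher, 0 were lower and 15 did not pass 2-fold (median log2 ratio 0.17), and in 17kT against WT, 3 were higher, 1 was lower and 12 did not pass (median -0.04). Foxm1, the forkhead factor of dividing cells, gave a signal of 424 in LT and 535 in 17kT, against 165 in WT, 2.56-fold and 3.23-fold higher. The lowest log2 ratios over its probe sets were 0.41 in LT and 0.60 in 17kT. Foxp1 was 2.24-fold higher in 17kT, although another of its probe sets gave a log2 ratio of -1.05, and Foxj3 was 2.02-fold higher, both past the rule in 3 of 6 scalings. Foxo4, an insulin-responsive forkhead factor, gave 636 in LT and 159 in 17kT, against 763 in WT, 4.81-fold lower in 17kT. Another Foxo4 probe set, at the floor in 17kT, gave only an upper bound of -0.04 for the log2 ratio. In LT against 17kT, Foxo4 was 4.01-fold higher in LT, 0 genes were lower and 15 did not pass. Scaling moved the median of this list from -0.23 to 0.63 in LT against WT. Over all measured genes, 11.1% were higher and 9.01% lower in LT against WT, and 9.97% and 8.64% in 17kT against WT. The shares for LT against 17kT were 4.47% and 4.23%. Nothing about the forkhead list was read from so few calls.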
